A study of Mus musculus with 50 samples.

Results

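The experiment asked what follows in Npm1-mutant mouse leukaemia when its mutant Flt3 allele is removed. Lineage-negative haematopoietic stem and progenitor cells of Npm1 Flt3 mice were taken after 7 days of tamoxifen (TAM, 3 libraries) or of vehicle (Vehicle, 3 libraries). These 6 libraries were chosen by their titles from the 50 of the series. Both groups carried the Npm1 and the Flt3 mutations, which had been switched on with Cre, Dre or Flp recombinase, and per the labels tamoxifen activates a Cre that deletes the Flt3 oncogene. No group received tamoxifen without a Flt3 allele to lose, so effects of the drug or of Cre cannot be told apart from those of losing mutant Flt3. The labels give neither the driver of the inducible Cre nor the age of the mice, and do not say whether each library is 1 mouse, so p-values here cover only how far libraries of a group differ.

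Flt3 is a growth factor receptor with kinase activity on early blood progenitors. Activating mutations make it signal without its ligand, and the signal runs through STAT5, RAS and MAPK, and PI3K and AKT. Mutant Npm1, a displaced nucleolar protein, keeps HOXA genes and Meis1 active, and Flt3 and Npm1 mutations are a frequent pair in acute myeloid leukaemia. Blood progenitors in a lineage-negative preparation are depleted of cells with surface markers of mature blood lineages.

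The 3 TAM libraries held 15053592, 20829452 and 22654054 counts, and the 3 vehicle libraries held 41911999, 103446979 and 40865360. Depth therefore moved with treatment. Counts in 1717 olfactory, vomeronasal and taste receptor genes, which serve smell and taste, made up 0.142% to 0.243% of the TAM libraries and 0.0126% to 0.0635% of the vehicle libraries. The low-level reads behind such genes thus also moved with treatment, and their part in the results was not tested.

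**Figure D1:**
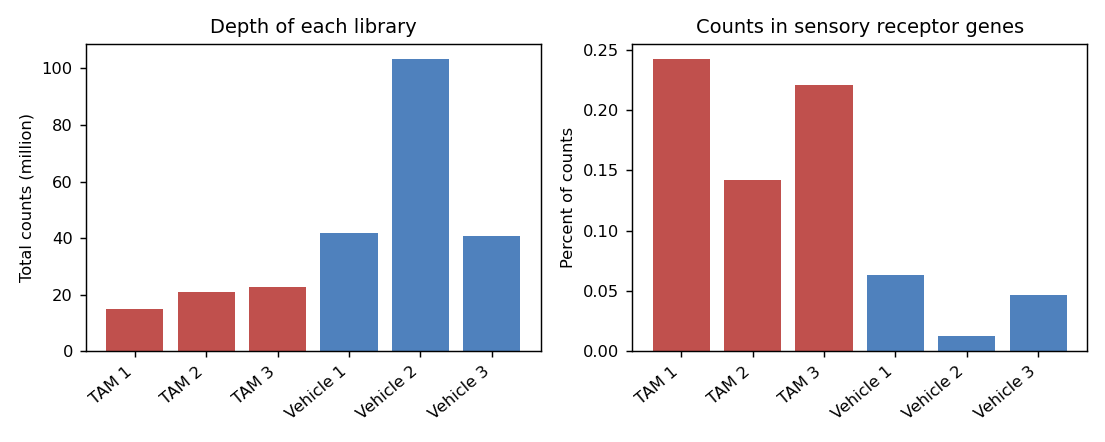
Total counts (left) and percent of counts in 1717 sensory receptor genes (right) in each of the 3 TAM and 3 vehicle libraries; each bar is 1 library. The TAM libraries had lower totals and 0.142% to 0.243% of their counts in sensory receptor genes, against 0.0126% to 0.0635% in vehicle.

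Levels below are CPM, counts relative to the library's total, scaled by TMM, which sets the bulk of genes equal, and changes are log2 fold changes of TAM over vehicle ± SE from edgeR's quasi-likelihood test (25269 genes, Benjamini-Hochberg adjusted p). The TMM factors were 1.32 to 1.67 in TAM and 0.476 to 0.865 in vehicle. Scaled levels thus stand below CPM of total counts in TAM and above it in vehicle, most of all in Vehicle replicate 2. The log2 fold change ran with the expression level. Its median was 1.23 in the lowest of 20 bins of genes by mean level and -1.91 in the highest. Among genes with a mean log2 CPM of 3 or more the median was -0.93 with TMM, -1.32 with median-ratio factors, -0.24 with upper-quartile factors and 0.29 with total counts. A second fit therefore set each gene against genes of like expression with a smooth offset per library. Its value, called the relative change, takes the typical gene at each level as unchanged. For a gene list, the median relative change is the median over its measured members of the TMM log2 fold change minus the median of the gene's bin.

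A gene is said to have risen or fallen where its adjusted p was under 0.05 in both fits and in one direction. That left 889 genes that rose (3.52% of those tested) and 2383 that fell (9.43%). With TMM alone the counts were 2544 (10.1%) and 5382 (21.3%), and in the relative fit alone 2003 (7.93%) and 2925 (11.6%). Without TAM replicate 3 the genes that fell in both fits numbered 1234, and without Vehicle replicate 3 those that rose numbered 539. The libraries did not overlap for 7650 genes with TAM above (30.3%) and 6460 with TAM below (25.6%), so a lack of overlap was common. Among the 10739 genes with a mean log2 CPM of 3 or more, 6.32% rose and 20.2% fell, and the counts of the lists below stand beside these shares. The share of falls was larger at high levels, with 394 of 1264 genes in the highest bin. The part of level in the counts of the lists was not tested.

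**Figure D2:**
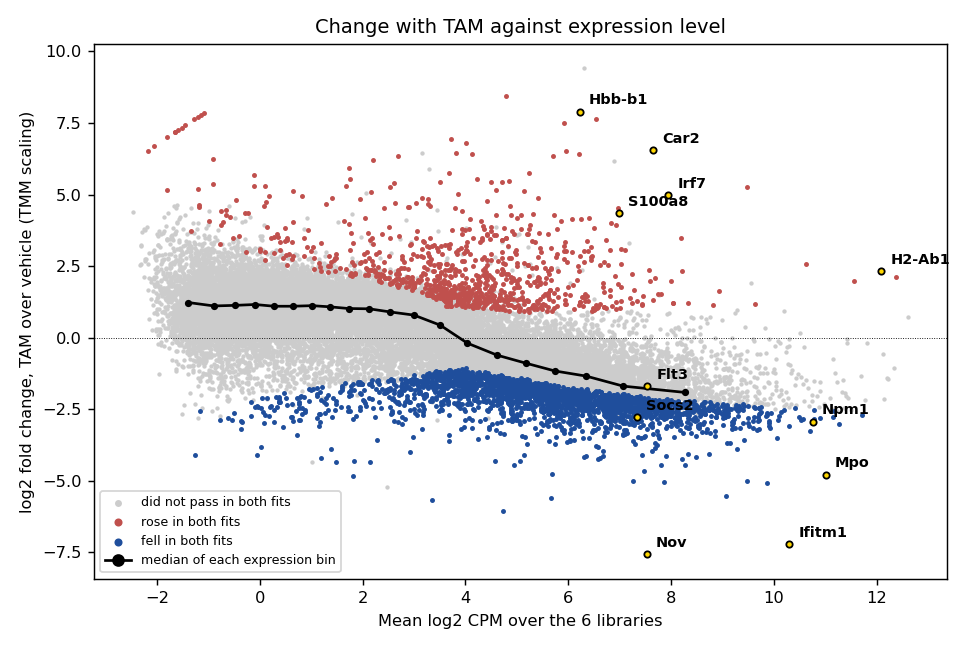
The log2 fold change of TAM over vehicle (TMM scaling) against mean log2 CPM for 25269 genes; red genes rose and blue genes fell in both fits, and the black line joins the medians of 20 bins of expression. The medians run from 1.23 in the lowest bin to -1.91 in the highest, and Flt3 lies on the line while Nov, Ifitm1 and Mpo lie below it and Hbb-b1, Car2 and Irf7 above it.

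Flt3 had 72.8, 138 and 53.7 CPM in the TAM libraries, against 242, 380 and 227 CPM in the vehicle libraries. Every TAM library was below every vehicle library, with a log2 fold change of -1.68 ± 0.39 (adjusted p = 0.00126). The relative change was -0.15 ± 0.26 (adjusted p = 0.737), so Flt3 is not counted among the genes that fell. Scaled by total counts alone, Flt3 stood at 83.3 to 183 CPM in TAM and 160 to 209 CPM in vehicle, and the groups overlapped. Counts per gene add up mutant and normal transcripts of Flt3, so the deletion of the mutant allele could not be read from them.

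Npm1, the gene of a nucleolar chaperone, had 518, 294 and 395 CPM in TAM and 1917, 4457 and 2851 CPM in vehicle. It fell by 2.93 ± 0.40 (adjusted p = 2.56e-06), with a relative change of -0.80 ± 0.25 (adjusted p = 0.0489). That call lies at the threshold and was lost with no filter on low counts and without TAM replicate 2 or 3 or Vehicle replicate 2 or 3. Dnmt3a, which encodes a DNA methyltransferase, changed by -0.62 ± 0.36 (adjusted p = 0.166), and its relative change was 0.57 ± 0.25 (adjusted p = 0.148).

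Among the outputs of STAT5, a transcription factor activated by mutant Flt3, 3 of 13 measured genes fell and 1 rose, a share of falls near the 20.2% of expressed genes. Socs2, which encodes a feedback inhibitor of cytokine signalling, had 47.2, 40.1 and 36.7 CPM in TAM and 127, 395 and 323 CPM in vehicle. It fell by 2.77 ± 0.41 (adjusted p = 6.37e-06), with a relative change of -1.21 ± 0.26 (adjusted p = 0.0103), and the call was lost without TAM replicate 3. Cish, a feedback inhibitor of the same family, had 18.6, 21.7 and 18.7 CPM in TAM and 40.1, 249 and 145 CPM in vehicle. The TAM values lay close together while the vehicle values spread widely, and Cish fell with a relative change of -1.62 ± 0.38 (adjusted p = 0.0152), a call lost when any 1 TAM library was left out. Id1, which encodes an inhibitor of basic helix-loop-helix factors, had 5.46, 14.7 and 7.97 CPM in TAM and 53.7, 192 and 105 CPM in vehicle. Its fall was the largest on the list, with a relative change of -2.66 ± 0.37 (adjusted p = 0.00099).

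Bcl6, a transcriptional repressor gene that STAT5 is known to repress, rose on the same list. It had 55, 68.7 and 57.6 CPM in TAM and 33.1, 22.4 and 31.2 CPM in vehicle, with a log2 fold change of 1.07 ± 0.35 (adjusted p = 0.0217) and a relative change of 2.06 ± 0.31 (adjusted p = 0.00167), and it was not called without Vehicle replicate 3, with median-ratio factors (0.78, adjusted p = 0.24) or in DESeq2 (0.75, adjusted p = 0.139). Ccnd2, the cyclin D2 gene, was below vehicle in every TAM library, yet its relative change was -0.41 ± 0.25 (adjusted p = 0.292). The kinase gene Pim1 changed by -0.64 ± 0.50 (adjusted p = 0.3), and its relative change was -1.54 (adjusted p = 0.0797). Pim1 passed in the relative fit alone with a filter of 5 CPM in 3 libraries or without Vehicle replicate 1. It passed under no other setting of filter, block or library. The median relative change of the 13 genes was -0.40, and it was -0.09 without TAM replicate 3.

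Genes of MAPK feedback and early response gave 1 rise and 1 fall among 21 measured. The phosphatase gene Dusp5 had 3.19, 3.38 and 2.82 CPM in TAM and 5.99, 12.4 and 7.14 CPM in vehicle. It fell with a relative change of -2.70 ± 0.63 (adjusted p = 0.0144), and the call was lost without any 1 TAM library or Vehicle replicate 3 and with a filter of 5 CPM in 3 libraries. With TMM its change was -1.44 ± 0.54 (adjusted p = 0.0416), and it was -0.73 with upper-quartile factors (adjusted p = 0.267) and -0.19 with total counts (adjusted p = 0.775). The ERK phosphatase gene Dusp6 overlapped between groups, at 51.9 to 110 CPM in TAM and 64.3 to 125 CPM in vehicle. Egr2, an early-response transcription factor gene, rose by 3.47 ± 0.51 (adjusted p = 6.12e-06). Of 15 FOXO targets, genes that the AKT arm of the pathway holds down, 3 rose and 1 fell. Il7r, the interleukin-7 receptor gene of lymphoid cells, had 51.9, 138 and 33.9 CPM in TAM and 9.38, 6.42 and 6.17 CPM in vehicle, a rise of 3.35 ± 0.46 (adjusted p = 3.49e-06). Il7r also stands on the early lymphoid list, of which 5 of 13 genes rose and none fell in both fits.

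The largest fall was that of Nov (also named Ccn3), which encodes a secreted matricellular protein. It had 2.03, 2.91 and 0.882 CPM in TAM and 193, 654 and 255 CPM in vehicle, a log2 fold change of -7.57 ± 0.59 (adjusted p = 2.13e-09) and a relative change of -6.04 ± 0.42 (adjusted p = 1.95e-05). Ifitm1, an interferon-induced transmembrane protein gene, had 19.5, 19.9 and 11.7 CPM in TAM and 1439, 3440 and 2653 CPM in vehicle. It fell by 7.20 ± 0.50 (adjusted p = 1.31e-11), against the direction of the interferon response genes described below. Both genes were low in all 3 TAM libraries and high in all 3 vehicle libraries. Tmem178 fell by 6.05 ± 0.54, Myl10 by 5.61 ± 0.51 and Angptl2, which encodes a secreted angiopoietin-like protein, by 5.0 ± 0.44. Clec11a, a secreted growth factor gene of the marrow, fell by 4.76 ± 0.43 and the receptor gene Gpr97 (Adgrg3) by 4.65 ± 0.45. These 7 genes had relative changes between -6.04 and -3.10. Cd34, the surface antigen gene of progenitors, had 17.6, 41.4 and 22.9 CPM in TAM and 388, 828 and 561 CPM in vehicle, with a relative change of -2.79 ± 0.23 (adjusted p = 5.24e-05). Because the libraries come from mixed cells, fewer cells of a type and less RNA per cell cannot be told apart here or in the results that follow.

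Primary granule genes, which granulocyte-monocyte progenitors and leukaemic blasts express, fell in both fits for 6 of 12 measured members and rose in both for none. Their median relative change was -2.14, but the list was split. In the relative fit alone 7 fell and 3 rose, and with TMM alone 7 fell and 1 rose. Mpo, the myeloperoxidase gene, had 141, 68.4 and 226 CPM in TAM and 3180, 5723 and 3078 CPM in vehicle. It fell by 4.78 ± 0.47 (adjusted p = 1.52e-08), with a relative change of -2.66 ± 0.43 (adjusted p = 0.00431). Ms4a3, a membrane protein gene of these progenitors, had 22.5, 15.7 and 30.8 CPM in TAM and 559, 1675 and 941 CPM in vehicle, with a relative change of -3.63 ± 0.31 (adjusted p = 6.07e-05). No TAM library came near a vehicle library for either gene. The serine protease genes Prtn3, Ctsg and Elane fell with relative changes of -3.10 ± 0.29, -3.08 ± 0.32 and -2.39 ± 0.32, and Rab44, a large GTPase gene of granulated cells, with -2.87 ± 0.19. The summed level of the list was 1072 to 1513 CPM in TAM and 8066 to 16160 CPM in vehicle.

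Of 15 measured Hox genes and leukaemia cofactors, 4 fell and 1 rose, not far from the 20.2% and 6.32% of expressed genes that did so. Hoxa9, a homeobox gene that mutant Npm1 keeps active, had 18.8, 25.0 and 35.1 CPM in TAM and 61.6, 154 and 102 CPM in vehicle. Its relative change was -0.87 ± 0.26 (adjusted p = 0.0398). Hoxa7 and Hoxa10 had relative changes of -1.02 ± 0.30 (adjusted p = 0.0368) and -1.84 ± 0.54 (adjusted p = 0.0377), and the calls of these 3 Hox genes were each lost when any 1 of several libraries was left out. With total counts the adjusted p of Hoxa7 and Hoxa10 was 0.161 and 0.117. Myb, a transcription factor gene of proliferating progenitors, had 8.88, 5.67 and 11.4 CPM in TAM and 28.2, 85.4 and 52.2 CPM in vehicle, with a relative change of -2.19 ± 0.40 (adjusted p = 0.00464). Meis1, the partner of HOXA9, had 19.6 to 23.5 CPM in TAM and 27.7 to 38.1 CPM in vehicle, and its relative change was 0.00 ± 0.25 (adjusted p = 0.997). The cofactor gene Pbx3 rose with a relative change of 1.16 ± 0.34 (adjusted p = 0.035), which was not called without any 1 TAM library or Vehicle replicate 3, with median-ratio factors or in DESeq2. The median relative change of the list was -0.10. It was -0.62 with the loess fit in place of TMM, -0.26 with median-ratio factors, -0.46 without Vehicle replicate 1 or 3 and 0.17 without Vehicle replicate 2, so its sign and size were not settled.

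**Figure D3:**
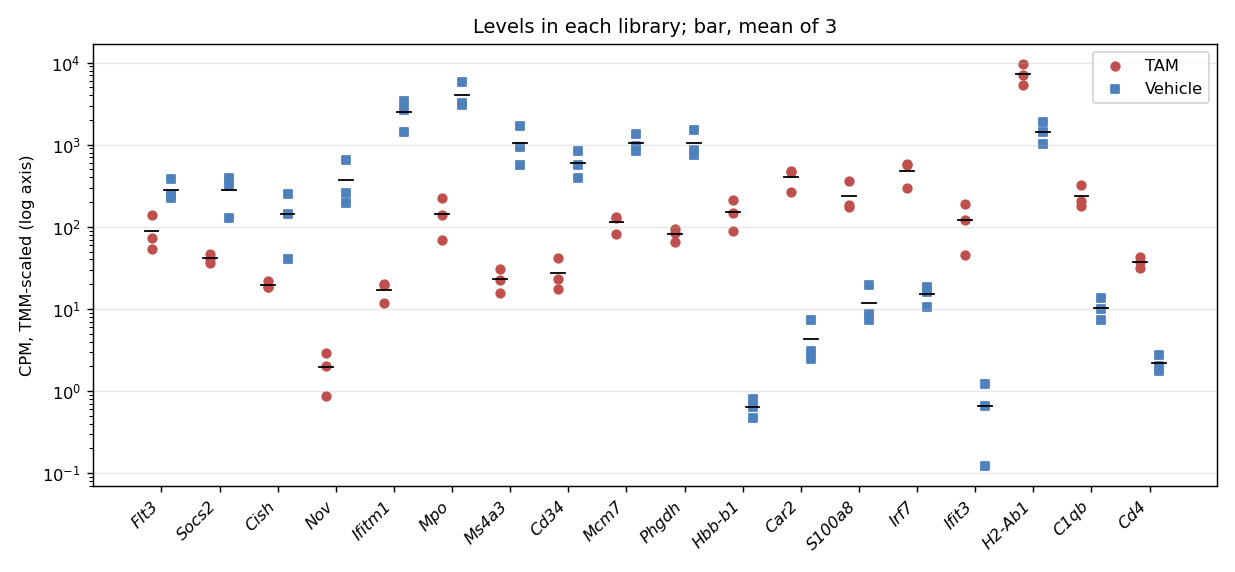
TMM-scaled CPM on a log axis for 18 genes, with 1 point per library (TAM circles on the left, vehicle squares on the right of each gene) and a bar at the mean of 3. Nov, Ifitm1 and Mpo are lower in every TAM library and Hbb-b1, Irf7, Ifit3 and C1qb higher, while Flt3 differs less than any of these.

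Cell cycle genes were lower in TAM. Of 20 S phase genes 17 fell and of 20 genes of G2 and mitosis 19 fell, with none rising in both fits, and both lists had a median relative change of -1.06. Mcm7, a subunit of the replicative helicase, had 131, 82.7 and 129 CPM in TAM and 838, 1340 and 975 CPM in vehicle, with a relative change of -1.34 ± 0.24 (adjusted p = 0.00405). Gins2, another helicase subunit gene, had 12.3 to 15.5 CPM in TAM and 116 to 191 CPM in vehicle, with a relative change of -2.32 ± 0.22 (adjusted p = 0.000105). The mitotic kinase genes Bub1 and Cdk1 had relative changes of -2.18 ± 0.31 (adjusted p = 0.00115) and -1.37 ± 0.22 (adjusted p = 0.00205). Among 15 cell cycle inhibitors and p53 targets 3 fell, again near the share of expressed genes, among them Cdkn1a, the gene of p21, with a relative change of -0.88 ± 0.16 (adjusted p = 0.00462). Of the BCL2 family 3 of 15 fell, a like share. Bax, a promoter of cell death, had a relative change of -1.12 ± 0.19 (adjusted p = 0.00324), while the survival gene Bcl2 changed by -0.46 ± 0.26 against genes of like expression (adjusted p = 0.245).

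Lists of growth and biosynthesis held falls and no rise called in both fits. Of 18 genes of ribosome biogenesis 14 fell, with a median relative change of -0.69. Myc, the gene of the growth regulator, had 75.2, 57.0 and 45.7 CPM in TAM and 238, 691 and 437 CPM in vehicle, with a relative change of -1.22 ± 0.25 (adjusted p = 0.00837). Dkc1 and Nop58, which encode proteins of the RNA-modifying particles of the nucleolus, had relative changes of -1.26 ± 0.22 (adjusted p = 0.00396) and -1.18 ± 0.18 (adjusted p = 0.00184). Of 20 genes of serine and one-carbon metabolism and the ATF4 response 7 fell, a share near the 394 of 1264 genes in the highest bin of expression. The median relative change of that list was -0.62. Phgdh, which encodes the first enzyme of serine synthesis, had 84.4, 92.9 and 65.6 CPM in TAM and 755, 1502 and 873 CPM in vehicle. Its relative change was -1.84 ± 0.17 (adjusted p = 7.92e-05), and those of Shmt1, Shmt2 and Psat1, enzymes of the same route, were -1.94 ± 0.29, -1.49 ± 0.22 and -1.39 ± 0.22. Of 21 genes of cholesterol synthesis and uptake 11 fell, and Fdps and Idi1, enzymes of the isoprenoid steps, had relative changes of -1.76 ± 0.25 (adjusted p = 0.00109) and -2.30 ± 0.37 (adjusted p = 0.00236). Of 16 glycolysis genes 8 fell, and Pgk1 had a relative change of -1.45 ± 0.15 (adjusted p = 0.000189). Idh2, a mitochondrial dehydrogenase gene, had 15.3, 49.6 and 23.4 CPM in TAM and 271, 654 and 254 CPM in vehicle, with a relative change of -2.19 ± 0.33 (adjusted p = 0.00179).

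Erythroid, late neutrophil, dendritic cell, iron-recycling macrophage and T and NK cell marker genes, described further on, were higher in TAM. Kit, the stem cell factor receptor gene of progenitors, was also higher there. In the same libraries Cd34, Myb, several primary granule genes and most cell cycle genes were lower. The part of a different mix of cells in those falls was not tested.

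Interferon response genes rose for 22 of 24 measured members and fell for none, with a median relative change of 4.29. Many such genes carry interferon-stimulated response elements, which STAT and IRF factors bind after interferon. The 250 bases before the start were read from RefSeq (build GRCm38.p6, the assembly also called mm10) for the 18 members with an entry and searched on both strands for the element's core, 2 copies of GAAA with 2 free bases between them. It was present in 9 of the 18, against 3.46% of 27025 genes with a window. The windows of 4 genes that rose are shown 5′ to 3′ along the gene's strand, ending at the base before the start, with the matches in capitals. They lie at chr4:156200819-156201068 on the minus strand (Isg15), chr12:26456453-26456702 on the minus strand (Rsad2), chr19:34583279-34583528 on the plus strand (Ifit3) and chr19:34640639-34640888 on the plus strand (Ifit1).
Isg15: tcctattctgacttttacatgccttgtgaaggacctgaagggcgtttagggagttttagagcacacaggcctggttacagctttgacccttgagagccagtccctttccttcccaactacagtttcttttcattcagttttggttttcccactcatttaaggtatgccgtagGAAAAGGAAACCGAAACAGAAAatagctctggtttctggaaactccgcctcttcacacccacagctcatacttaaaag
Rsad2: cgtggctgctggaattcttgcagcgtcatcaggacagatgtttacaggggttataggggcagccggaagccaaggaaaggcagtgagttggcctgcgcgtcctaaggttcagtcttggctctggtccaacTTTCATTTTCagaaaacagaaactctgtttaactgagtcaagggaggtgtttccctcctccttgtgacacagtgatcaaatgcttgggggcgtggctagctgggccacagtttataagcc
Ifit3: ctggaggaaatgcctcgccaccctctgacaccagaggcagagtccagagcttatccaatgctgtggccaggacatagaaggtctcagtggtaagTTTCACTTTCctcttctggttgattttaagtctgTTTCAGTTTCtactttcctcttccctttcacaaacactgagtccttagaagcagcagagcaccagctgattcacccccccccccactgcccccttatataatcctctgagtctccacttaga
Ifit1: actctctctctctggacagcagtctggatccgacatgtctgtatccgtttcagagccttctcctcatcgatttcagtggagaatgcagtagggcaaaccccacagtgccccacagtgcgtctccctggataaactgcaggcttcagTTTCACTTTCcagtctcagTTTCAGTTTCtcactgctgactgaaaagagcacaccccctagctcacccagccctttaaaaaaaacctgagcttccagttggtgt

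In Isg15, 3 overlapping matches make 1 run, while Ifit3 and Ifit1 hold 2 separate matches each and Rsad2 holds 1. The windows are a description of the sequence and not of binding. Isg15, which encodes a ubiquitin-like protein, had 24.7, 6.25 and 24.7 CPM in TAM and 0.552, 0.488 and 0.901 CPM in vehicle, a rise of 4.85 ± 0.61 (adjusted p = 7.11e-07). Rsad2, the gene of the antiviral enzyme viperin, had 73.6, 35.9 and 94.5 CPM in TAM and 8.61, 1.69 and 6.45 CPM in vehicle, a rise of 3.61 ± 0.51 (adjusted p = 1.57e-05) that was not called without Vehicle replicate 3. Ifit3, which encodes an RNA-sensing effector, had 121, 45.5 and 191 CPM in TAM and 1.21, 0.122 and 0.659 CPM in vehicle, a rise of 7.51 ± 0.89 (adjusted p = 0.000115). TAM replicate 2 was the lowest of the 3 TAM libraries for each of these genes and still stood above every vehicle library. Ifit1 had 86.2, 33.6 and 126 CPM in TAM and 3.15, 1.40 and 3.88 CPM in vehicle, a rise of 4.88 ± 0.50 (adjusted p = 9.4e-08).

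Irf7, the transcription factor gene that amplifies type I interferon, had 561, 297 and 582 CPM in TAM and 10.5, 18.5 and 16.2 CPM in vehicle. Its relative change was 6.84 ± 0.37 (adjusted p = 5.58e-06). Usp18, which removes ISG15 from proteins, rose by 4.16 ± 0.44 (adjusted p = 5.81e-08), Iigp1, an immunity-related GTPase gene, by 6.41 ± 0.56 (adjusted p = 1.52e-08) and Rtp4 by 6.35 ± 0.52 (adjusted p = 1.89e-09). Pydc4 and Apol11b were also among the 12 largest rises, at 5.75 ± 0.51 and 6.80 ± 0.59. Irf7 is also expressed by dendritic cells, whose lists are described below. Of the MHC class II and dendritic cell list 11 of 14 members rose, but of the plasmacytoid dendritic cell list 5 of 12. Among the TAM libraries Irf7 was lowest in replicate 2, where the MHC class II gene H2-Ab1 was highest. Of 16 genes of NF-kB feedback and inflammation 6 rose and 2 fell, and of 11 heat shock chaperones 2 fell. Of 11 genes of the oestrogen receptor and aryl hydrocarbon response, receptors that bind tamoxifen or related ligands, none was called in both fits and 1 rose in the relative fit alone. Their median relative change was 0.18.

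Erythroid genes rose for 13 of 15 measured members and fell for none, with a median relative change of 4.41. Hbb-b1, a beta-globin gene, had 87.8, 213 and 148 CPM in TAM and 0.635, 0.467 and 0.797 CPM in vehicle. It rose by 7.90 ± 0.51 (adjusted p = 5.63e-12). Car2, the carbonic anhydrase gene of red-cell precursors and other cells, had 473, 262 and 463 CPM in TAM and 2.46, 3.07 and 7.35 CPM in vehicle, and Car1, its red-cell relative, rose by 7.63 ± 0.66 (adjusted p = 1.39e-07). Both sets of 3 libraries were far apart for these genes. The alpha-globin genes Hba-a1 and Hba-a2 rose by 6.52 ± 0.47 and 8.44 ± 0.60, but they are near-identical copies between which the counting could divide reads. Epor, the erythropoietin receptor gene, rose by 4.88 ± 0.59, the erythroid surface gene Cldn13 by 6.43 ± 0.75 and the transcription factor genes Klf1 and Gata1 by 5.28 ± 0.66 and 3.80 ± 0.69. The Gata1 call was lost without Vehicle replicate 3. The list summed to 1093 to 1322 CPM in TAM and 256.9 to 578.3 CPM in vehicle, and none of its measured markers was at 0 throughout either group.

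Late neutrophil genes rose for 11 of 17 members and fell for none, with a median relative change of 4.04. In the same libraries 6 of 12 primary granule genes fell. S100a8, which encodes a subunit of calprotectin, had 173, 362 and 186 CPM in TAM and 7.42, 19.3 and 8.67 CPM in vehicle. Its relative change was 5.99 ± 0.30 (adjusted p = 4.55e-06), and that of its partner gene S100a9 was 5.62 ± 0.28 (adjusted p = 4.55e-06). The granule peptide gene Camp and the secreted factor gene Retnlg rose by 3.67 ± 0.43 and 4.30 ± 0.45. Fpr1, the formyl peptide receptor gene of phagocytes, rose by 6.94 ± 1.11 (adjusted p = 0.00122), with 7.33, 51.8 and 19.0 CPM in TAM and 0.524, 0.0406 and 0.0693 CPM in vehicle. TAM replicate 2 was the highest library for S100a8, S100a9, Retnlg, Camp and Fpr1, whereas it was the lowest of the TAM libraries for Irf7 and Ifit3. The list summed to 1876 to 6110 CPM in TAM and 432.6 to 863 CPM in vehicle.

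Genes of dendritic cells and antigen presentation rose for 11 of 14 members, iron-recycling macrophage genes for 10 of 12 and T and NK cell genes for 8 of 16, and no member of these lists fell. H2-Ab1, which encodes a chain of MHC class II, had 5303, 9585 and 7016 CPM in TAM and 1907, 1418 and 1006 CPM in vehicle. It rose by 2.34 ± 0.39 (adjusted p = 2.39e-05), and Cd74, the gene of the MHC class II invariant chain, by 2.11 ± 0.37 (adjusted p = 5.66e-05). Xcr1, a chemokine receptor gene of cross-presenting dendritic cells, had 138, 112 and 173 CPM in TAM and 15.8, 18.5 and 16.9 CPM in vehicle. C1qb, a complement gene of tissue macrophages, had 209, 327 and 180 CPM in TAM and 7.37, 13.5 and 9.95 CPM in vehicle, with a relative change of 6.14 ± 0.23 (adjusted p = 1.33e-06). Vcam1, an adhesion molecule gene of marrow macrophages, rose by 2.84 ± 0.40 (adjusted p = 3.66e-06). Cd4, the co-receptor gene of helper T cells, had 36.8, 31.1 and 43.4 CPM in TAM and 2.73, 1.77 and 2.01 CPM in vehicle, a rise of 4.09 ± 0.44 (adjusted p = 4.8e-08). The T-cell receptor gene Trbc1 and the NK receptor gene Klrb1c rose by 3.42 ± 0.50 and 2.45 ± 0.38. Summed over each list, TAM against vehicle stood at 19740 to 31750 against 5131 to 7574 CPM for MHC class II, 633.4 to 1303 against 200.7 to 274.5 CPM for macrophages and 885.5 to 1208 against 271.5 to 839.2 CPM for T and NK cells.

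Stem cell genes rose for 3 of 18 members, and none fell. Ly6a, the Sca-1 gene, which interferon also induces, had 287, 84.1 and 320 CPM in TAM and 18.6, 16.2 and 10.5 CPM in vehicle, a rise of 3.93 ± 0.46 (adjusted p = 4.15e-07). Its lowest TAM value was again that of replicate 2. Mllt3, which encodes a reader of histone marks in stem cells, rose by 1.54 ± 0.37 (adjusted p = 0.00164, and 0.0557 with median-ratio factors) and Slamf1, the CD150 gene, by 2.01 ± 0.47 (adjusted p = 0.00118), the second not called without TAM replicate 1. Kit, the stem cell factor receptor gene, had 85.7, 62.7 and 64.3 CPM in TAM and 36.4, 42.3 and 24.0 CPM in vehicle. The TMM rise of Kit, 1.05 ± 0.36 (adjusted p = 0.0266), was not called with no filter or without Vehicle replicate 3, and median-ratio factors gave 0.67 (adjusted p = 0.32). Its relative change was 2.24 (adjusted p = 0.000667), and 1.87 to 2.56 when 1 library was left out. The median relative change of the stem cell list was 0.25.

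Monocyte and macrophage genes were not called in both fits at any of 18 members, but the fits differed. In the relative fit alone 11 rose and none fell, with a list median of 1.33, and with TMM alone 5 fell and none rose. F13a1 and Ly86, both of monocytes, had relative changes of 0.15 ± 0.28 (adjusted p = 0.763) and -0.03 ± 0.15 (adjusted p = 0.916), although both were lower in every TAM library with TMM. The sign for F13a1 was negative with TMM, at -1.94 ± 0.41. Mitochondrially encoded genes were likewise not called in both fits at any of 8 members, and mt-Co1, which encodes a subunit of the last respiratory complex, changed sign, at -1.06 ± 0.38 with TMM and 1.24 ± 0.18 in the relative fit. Plasmacytoid dendritic cell genes rose for 5 of 12, but the list summed to 1045 to 1396 CPM in TAM and 1227 to 2469 CPM in vehicle. Stromal and endothelial genes rose for 4 of 12 with 1 fall, myeloid fate transcription factors for 3 of 16 and cytokine receptors for 4 of 15 with 2 falls. The stromal chemokine gene Cxcl12 rose by 2.83 ± 0.52 (adjusted p = 0.000344). Of the megakaryocyte list 1 of 12 rose, Vwf, whose call was lost when any 1 of 5 libraries was left out, with median-ratio factors and in DESeq2. Basophil and mast cell genes rose for 2 of 11, eosinophil genes for 1 of 10 and plasma cell genes for 1 of 10, and of 11 B-cell genes 1 rose and 1 fell. Of 10 writers and erasers of DNA methylation 2 fell.

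**Figure D4:**
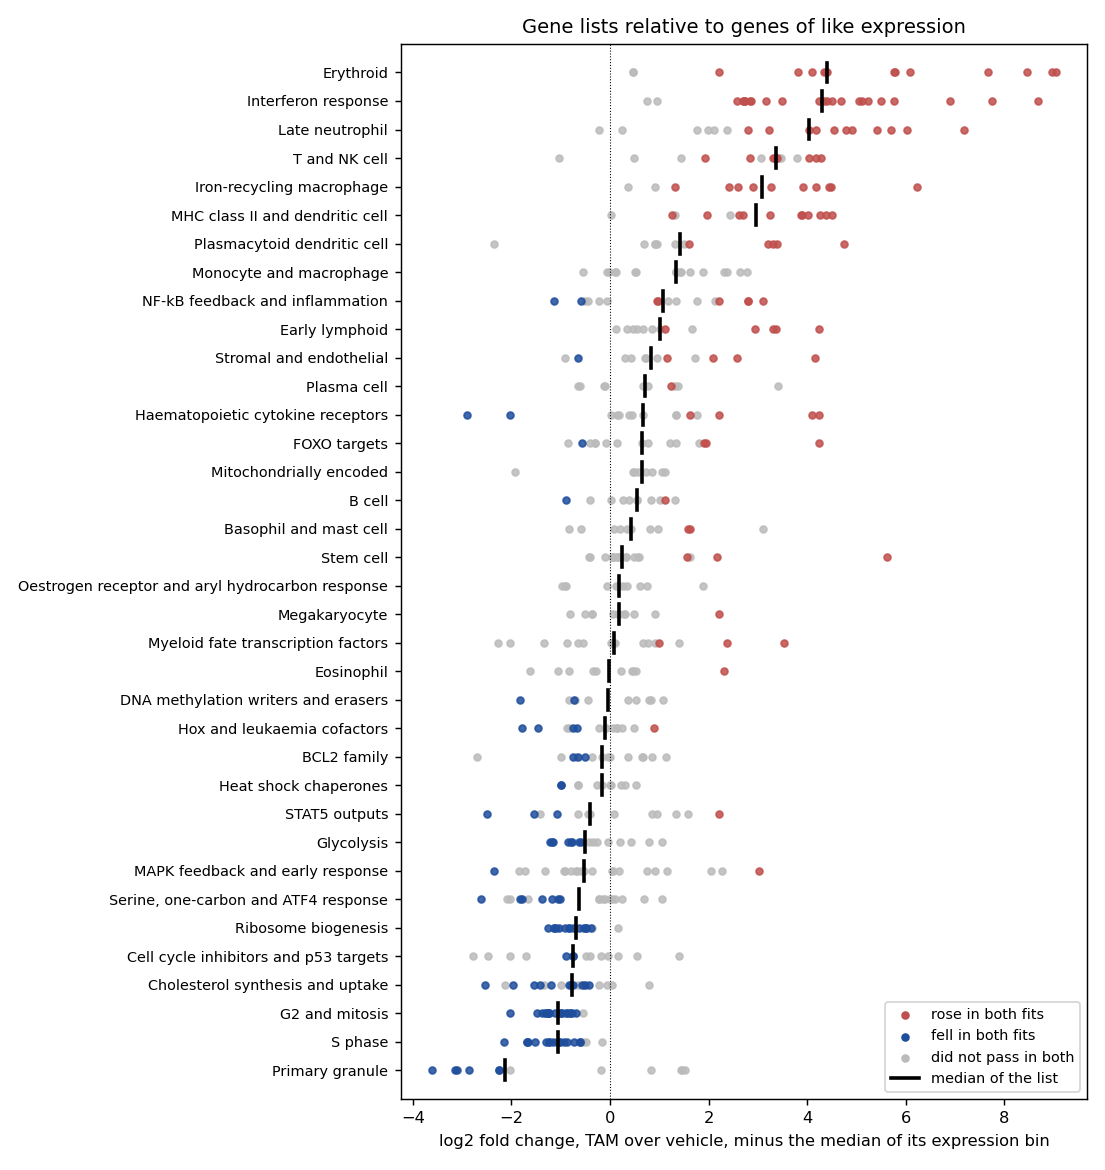
Relative change of each measured member of 36 gene lists, as the log2 fold change of TAM over vehicle minus the median of its expression bin; each point is a gene, red where it rose and blue where it fell in both fits, and black bars are list medians. Erythroid (4.41), interferon (4.29) and late neutrophil (4.04) lists lie highest, and the primary granule list (-2.14) and both cell cycle lists (-1.06) lowest.

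The labelled preparation was compared with LSK cells (lineage-negative, Sca-1-positive and Kit-positive) and GMP (granulocyte-monocyte progenitors) sorted from Npm1 Flt3 mice, 4 libraries each, on CPM of total counts. Sensory receptor genes made up 0.000921% to 0.0111% of the counts in the sorted libraries, less than in any TAM or vehicle library. The part of such differences between preparations in the values below was not tested. Kit stood at 82.8 to 143 CPM in TAM and 17 to 31.5 CPM in vehicle, beside 72.5 to 147 CPM in sorted LSK and 125 to 256 CPM in sorted GMP. Cd34 stood at 29.4 to 54.6 CPM in TAM and 336 to 396 CPM in vehicle, beside 488 to 796 CPM in LSK and 318 to 530 CPM in GMP. The vehicle libraries thus lay below both sorted populations for Kit, and the TAM libraries did so for Cd34. The lineage gene Cd3e, a T-cell receptor component, stood at 32.6 to 52.5 CPM in TAM and 0.881 to 3.16 CPM in vehicle, and Itgam, the CD11b gene, at 131 to 298 CPM in TAM and 44.0 to 75.8 CPM in vehicle, so genes of mature cells were present in libraries labelled lineage-negative. Irf7 stood at 392 to 936 CPM in TAM and 8.78 to 11.5 CPM in vehicle, beside 97.9 to 529 CPM in LSK and 83.6 to 263 CPM in GMP. H2-Ab1 stood at 8840 to 12700 CPM in TAM and 675 to 1650 CPM in vehicle, beside 2510 to 12100 CPM in LSK and 9150 to 18800 CPM in GMP. S100a8 stood at 288 to 478 CPM in TAM and 6.12 to 9.2 CPM in vehicle, beside 38.2 to 124 CPM in LSK and 57.9 to 350 CPM in GMP. The vehicle libraries thus lay below both sorted populations for Irf7, H2-Ab1 and S100a8. The TAM libraries overlapped both for H2-Ab1. For Irf7 they overlapped LSK and lay above GMP, and for S100a8 they overlapped GMP and lay above LSK. Hbb-b1, in contrast, stood at 146 to 281 CPM in TAM and 0.222 to 0.563 CPM in vehicle, beside 0.312 to 1.75 CPM in LSK and 0.696 to 1.02 CPM in GMP.

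A last comparison took the genes that differ between Flt3-mutant and WT mice at 4 weeks, in libraries that share no sample with TAM and vehicle, and looked them up in the TAM comparison. In LSK 449 genes were higher in Flt3 (4.54% of 9892 tested) and 554 lower (5.6%), and in GMP 655 were higher (7.18% of 9122) and 709 lower (7.77%). The 1364 genes of GMP became 770 without Flt3 GMP replicate 3, 889 without WT GMP replicate 1 and 340 in DESeq2. Those mice carry no Npm1 mutation. Of the genes higher in Flt3 LSK, 36.3% of the 443 tested fell with TAM and 8.13% rose, with a median relative change of -0.37. Of those lower in Flt3 LSK, 15.3% of 548 rose and 9.31% fell, with a median of 0.40. For GMP the order was not the same. Of the genes higher in Flt3 GMP, 9.51% of 652 rose and 16% fell, with a median of 0.32, and of those lower in Flt3 GMP, 4.53% of 707 rose and 39% fell, with a median of -0.42. These shares stand beside 6.32% and 20.2% of expressed genes that rose and fell, but the levels are unlike. The median of mean log2 CPM was 6.41 and 4.54 for the genes higher and lower in Flt3 LSK. It was 6.03 and 6.06 for those of GMP, and 5.32 for the expressed genes, which alone were cut at 3. Falls were more common at high levels, with 200 of 1263 genes in bin 14 and 394 of 1264 in bin 20. The part of level in these shares was not tested.

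**Figure D5:**
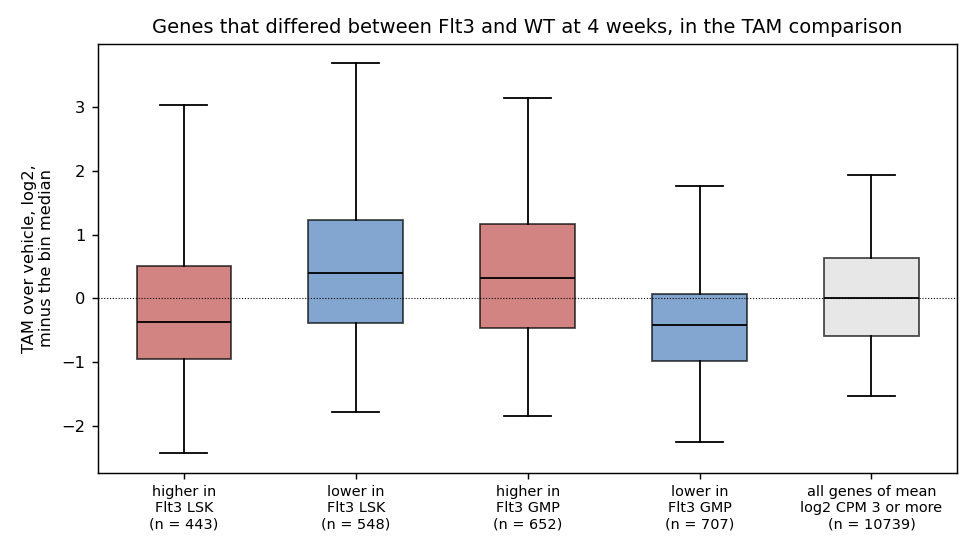
Relative change with TAM, as log2 fold change minus the median of the expression bin, of genes higher (red) or lower (blue) in Flt3 than in WT at 4 weeks in LSK and in GMP, and of all genes with a mean log2 CPM of 3 or more (grey). Boxes span the quartiles with the median as a line and whiskers reach the 5th and 95th percentiles; the medians are -0.37, 0.40, 0.32 and -0.42 from left to right.

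Of 171 tested genes higher in Flt3 in both LSK and GMP, 31% fell with TAM and 14% rose, with a median relative change of -0.17, and of 116 lower in both, 19.8% rose and 20.7% fell, with a median of 0.06. Neither set thus moved one way as a whole. By the rule for named genes, 8 of the genes that differed in both LSK and GMP with 1 direction were followed singly. Nov was higher in Flt3 by 9.57 ± 0.59 in LSK and 8.73 ± 0.89 in GMP, and fell with TAM. Cp, the ceruloplasmin gene, was higher in Flt3 by 6.69 ± 1.18 in LSK and 8.70 ± 0.81 in GMP, and had 24.9, 25.1 and 39.1 CPM in TAM and 391, 806 and 495 CPM in vehicle, a fall of 4.25 ± 0.42 (adjusted p = 1.63e-08). Upk1b and Gm17004 were also higher in Flt3 and fell with TAM, with relative changes of -4.02 ± 0.56 and -1.79 ± 0.38, the Gm17004 call being lost without TAM replicate 3, while Gm16603 had -0.84 ± 0.28 (adjusted p = 0.0568). Car1 was lower in Flt3, with log2 fold changes of Flt3 over WT of -6.87 ± 0.57 in LSK and -10.07 ± 0.81 in GMP, and rose with TAM. Gdf3, a TGF-beta family ligand gene, had changes of -7.18 ± 0.62 in LSK and -5.67 ± 0.47 in GMP, and stood at 16.5, 1.13 and 17.9 CPM in TAM and 1.35, 0.467 and 1.25 CPM in vehicle. The groups overlapped for Gdf3, and its call was lost when any 1 of 5 libraries was left out, in limma voom and with a filter of 5 CPM in 3 libraries. Cd209a, a lectin gene of dendritic cells, went the other way from these, as did Xcr1 and H2-Eb1, picked here after their values were seen, which were higher in Flt3 in both populations and rose with TAM. Cd209a was higher in Flt3 by 6.70 ± 0.89 in LSK and 6.63 ± 1.13 in GMP and rose with TAM, at 342, 332 and 554 CPM in TAM and 51.7, 112 and 150 CPM in vehicle (adjusted p = 0.000284).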

How the data were processed

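The authors deposited counts per gene. The submitters' processing notes name STAR, featureCounts and the build mm10; versions, annotation and strand setting are not given in the sources used here. Per the labels, paired-end and 3' end kits were both used, with no map to samples.

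The counts were fitted in R 4.3.3 with edgeR 4.0.16 (filterByExpr with a minimum count of 10, TMM, robust quasi-likelihood F test, Benjamini-Hochberg, threshold 0.05) on the 6 libraries. The relative fit used loess offsets (span 0.3) per library on mean log2 CPM. Lists were centred on the medians of 20 bins. Flt3 and WT libraries were fitted as 15 LSK and 15 GMP libraries of 2 to 8 weeks, and the GMP fit holds 1 library of 1942 counts (Flt3, 8 weeks); the 4-week libraries alone gave 1467 genes in GMP, against 1364. Alternatives were DESeq2 1.42.0, limma 3.58.1 voom, other scalings, filters, a replicate block and leaving out libraries. The files hold 33924 gene symbols, and of 517 list genes 5 were not found. Antisense and overlapping genes cannot be separated. Figures used matplotlib.

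Members and lists were chosen with earlier results of these data known. Named genes were Flt3, Npm1, Dnmt3a, the 12 largest rises and falls (mean log2 CPM of 3 or more, no overlap between groups, no predicted, clone-named or sex-linked genes), up to 4 per list by p, and 8 from the Flt3 effects. Only part of these is printed, and Cd34, Elane, Bcl6, Pim1, Dusp5, Dusp6, Kit, Meis1, Pbx3, Myc, Rsad2, Isg15, Klf1, Gata1 and the lineage genes were chosen after their values were seen. The 36 lists hold genes that also stand on other lists. No 2 libraries were copies, since the chi-square of their counts per degree of freedom was at least 37.2. Residuals of TAM and vehicle libraries with the same title number correlated at 0.156, 0.304 and 0.111. That pairing comes from the data and not from the labels. With the replicate block 4289 genes rose with TMM scaling, against 2544, and all 90 genes named here that were called in both fits were called again.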

Additional observations from a re-analysis of the deposited data

How the results depend on the processing

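Genes called with TMM numbered 7926, against 4928 with loess offsets and 13825 with limma voom. Those that rose numbered 2544, against 9294 with total counts, 7214 with voom and 4289 with the replicate block, and those that fell 5382, against 3523 with upper-quartile factors, 2105 with total counts and 2925 with loess offsets. Leaving out 1 library gave 5142 to 9876 genes called and 910 to 3719 that rose. Calls in both fits then ranged over 1847 to 3721 in all, 539 to 1059 for rises and 1234 to 2662 for falls, and 1363 rose with a filter of 5 CPM in 3 libraries. Of the 90 genes named that were called in both fits, 77 to 90 were called again under each setting of filter, block or library. DESeq2 called 340 genes in Flt3 GMP, against 1364, and leaving out 1 library gave 770 to 1163. The medians of the Flt3 genes ranged over -0.38 to -0.27 (higher in LSK), 0.32 to 0.46 (lower in LSK), 0.22 to 0.38 (higher in GMP) and -0.51 to -0.37 (lower in GMP) when 1 library was left out. The lower-in-LSK median was 0.59 over genes above the level minimum of the named genes (mean log2 CPM 3), and the lower-in-GMP median was -0.54 with total counts and with loess offsets. Signs reversed for F13a1 (0.15 with loess offsets), mt-Co1 (0.22 with total counts, 1.24 with loess offsets) and the Hox list (-0.62 with loess offsets and -0.46 to 0.17 when 1 library was left out, the highest without Vehicle replicate 2). Where counts moved, the cause was not tested. Depth ran from 15053592 to 103446979 counts and was lower in every TAM library than in any vehicle library. Even so, 30394 to 30631 genes had counts in the TAM libraries and 28013 to 30002 in the vehicle libraries. The part of depth in the lowest levels was not tested.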

Other observations

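Sex-linked genes also differed between the groups. Xist, the X-inactivation transcript of female cells, had 12.8, 24.0 and 25.3 CPM in TAM and 1.46, 3.80 and 1.42 CPM in vehicle, with a log2 fold change of 3.21 ± 0.52 (adjusted p = 1.74e-05) and a relative change of 3.18 ± 0.50 (adjusted p = 0.00214, edgeR). Ddx3y, a Y-linked gene, had 40.7, 79.7 and 76.7 CPM in TAM and 157, 260 and 189 CPM in vehicle, with a relative change of -0.18 ± 0.21 (adjusted p = 0.612). Of 4 Y-linked genes 1, Kdm5d, fell in both fits, with a relative change of -0.94 ± 0.26 (adjusted p = 0.0307) that was lost without TAM replicate 1 or 2 or Vehicle replicate 3. Transcripts of both kinds were present in all 6 libraries. These genes were chosen after their values were seen, and the labels used here do not give the sex of the mice.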
